A study of Bos taurus with 8 samples.

Results

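TNFRSF12A, the receptor of the cytokine TWEAK, was followed in bovine embryonic stem cells (bESCs) together with 9 genes of its signalling route: its ligand TNFSF12, the TNF receptor TNFRSF1A, the NF-kB subunits NFKB1, NFKB2, RELA and RELB, and the regulators NFKBIA, TNFAIP3 and BIRC3. The receptor was chosen by its strong rise between the conditions compared here, so its values are given as a description with no test, and the other 9 were picked by their role. These are 10 of the 32637 genes with values, and 10 of 10 passed the filter on low counts, which left 15744 genes of the whole transcriptome to test.

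RNA was sequenced from 4 bESC lines, A, C, D and E, recorded as genotype XX and each established from a separate whole in vitro-produced embryo. Each line gave 1 library from cells on MEF (irradiated mouse embryonic fibroblasts, a feeder layer) at passage 15 to 17 and 1 library from feeder-free cells on vitronectin at passage 20 to 22, all in 5% O2 in NBFR, a medium with FGF2 and the WNT inhibitor IWR-1. The labels name Activin A for both conditions, whereas the study's methods describe it as an addition for feeder-free culture. Each line was counted as 1 biological replicate, so the line letter pairs the libraries, and passage, matrix, feeder cells and possibly Activin A changed together and cannot be told apart.

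In TNF superfamily signalling a ligand clusters its receptor at the cell surface, adaptors such as the TRAF proteins and ubiquitin ligases join its tail, and kinases then release NF-kB dimers that are otherwise held in the cytoplasm by IkB proteins. RELA with the product of NFKB1 forms the canonical dimer, while RELB with the product of NFKB2 forms the non-canonical one that the TWEAK receptor is also known to activate. The freed dimers switch on genes of inflammation and survival, among them NFKBIA, TNFAIP3 and BIRC3, whose products feed back on the same route.

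Library totals lay between 44268717 and 54296425 counts for MEF and between 49671478 and 102351560 counts for feeder-free conditions, the largest being line D. The 6 pluripotent stem cell markers POU5F1, SOX2, NANOG, LIN28B, SALL4 and DNMT3B summed to between 4282 and 5053 CPM (counts scaled by library size and TMM factors) on MEF and to between 3749 and 4534 CPM in feeder-free conditions, lower in 4 of 4 lines, with 0 called. SALL4 had an edgeR adjusted p of 0.0426 at a change of 1.49-fold lower, just under the fold threshold. With line as a term SALL4, SOX2 and LIN28B had edgeR adjusted p of 0.00614, 0.0436 and 0.0456, all under the fold threshold. Each of these was lower in 4 of 4 lines without overlap of the groups. POU5F1, NANOG and DNMT3B had adjusted p of 0.380, 0.0824 and 0.496 in that fit. The 20 fibroblast markers summed to between 468 and 586 CPM on MEF and to between 280.1 and 1315 CPM in feeder-free conditions, higher in 2 of 4 lines and mostly from COL1A1 (means of 353 and 507 CPM). The unpaired test called 0 of 16 tested fibroblast markers, beside 1.73% of all genes. The fit with line as a term called COL3A1 and POSTN higher and COL1A2 and PRRX1 lower, beside 10% of all genes called in either direction. DPT was at 0 counts in every MEF library and at 0, 6, 0 and 2 counts in feeder-free conditions in lines A, C, D and E. FAP had 0, 4, 0 and 6 counts and TWIST2 3, 26, 32 and 2 counts on MEF, and both were at 0 in every feeder-free library. Summed trophoblast markers lay at 22.7 to 38.5 CPM on MEF and at 42.8 to 115 CPM in feeder-free conditions. Most came from KRT7 (means of 24.3 and 68.4 CPM). GATA2 and TFAP2A were lower in 4 of 4 lines, GATA3 was higher in 3 of 4 and TFAP2C in 2 of 4. Groups overlapped for TFAP2A, GATA3 and TFAP2C (edgeR adjusted p = 0.493, 0.712 and 0.944), and TFAP2A had 2 to 18 counts per library. CDX2, PAG2 and IFNT2 were at 0 counts throughout, and ELF5 had at most 2 counts in any library. Summed hypoblast and endoderm markers lay at 52.2 to 113 CPM and at 129 to 240 CPM, nearly all from APOA1 (means of 63.8 and 185 CPM, called with an edgeR adjusted p of 0.0349). The other tested markers of that list, FOXA2 and PDGFRA, had log2 fold changes of −0.93 and −0.68, and AFP was at 0 counts. Summed blood cell markers lay at 0.997 to 2.25 CPM and at 3.46 to 7.87 CPM, mostly from CD68 and SPI1. The trophoblast, hypoblast and endoderm, and blood cell lists had 6, 3 and 3 tested markers. Of these, both fits called PTGS2 and APOA1 higher, and the fit with line as a term also called KRT7, CSF1R and SPI1 higher and GATA2 lower. The part of other cell types in the results was not tested, and in bulk RNA fewer cells of a type and less RNA per cell cannot be told apart.

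TNFRSF12A is a small member of the TNF receptor superfamily that is known to be induced by growth factors and tissue injury. The gene lies at chr25:2435936-2439695 of ARS-UCD2.0. On MEF it was measured at 2.30, 2.23, 2.87 and 2.17 CPM in lines A, C, D and E, from 96, 123, 139 and 96 counts. In feeder-free conditions the same lines had 6.16, 19.8, 55.5 and 25.4 CPM, from 307, 1051, 5679 and 1322 counts. The MEF libraries lay close together while the feeder-free libraries spread widely, with line A lowest and line D highest, and the lowest feeder-free library was still above every MEF library.

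The mean level of TNFRSF12A went from 2.40 ± 0.32 CPM on MEF (SD, n = 4) to 26.7 ± 20.8 CPM in feeder-free conditions (SD, n = 4), a fitted log2 fold change of 3.48 or 11.2-fold. By line, the log2 ratio was 1.40 in A, 3.13 in C, 4.26 in D and 3.53 in E. Line A thus changed least in the same direction as the others. With one library left out at a time the fitted log2 fold change lay between 2.84, without the feeder-free library of line D, and 3.81, without that of line A. Ranked by fitted log2 fold change, TNFRSF12A was number 23 of the 15744 genes tested, between ANXA2 at 3.48 and FOS at 3.45.

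Reads of TNFRSF12A could be shared with a neighbour. Its span of 3760 bases overlaps that of CLDN6, a tight junction gene of epithelia and pluripotent cells, over 473 bases, and whether the counting used strand is not given in the sources used here. CLDN6 was measured at 162, 208, 257 and 127 CPM on MEF and at 308, 329, 526 and 360 CPM in feeder-free conditions in lines A, C, D and E. In 4 of 4 lines it was higher in feeder-free conditions, without overlap of the groups, by a log2 fold change of 1.01 ± 0.25 (SE, edgeR's quasi-likelihood test, adjusted p = 0.0617), and the fit with line as a term called it (log2 fold change 1.03, adjusted p = 0.00233). The part of CLDN6 reads in the TNFRSF12A values was not tested. The study also describes taking out of the MEF counts bovine-aligned reads found in pure MEF, and how many were taken from each gene is not given, so the part of that step was not tested either.

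**Figure D1:**
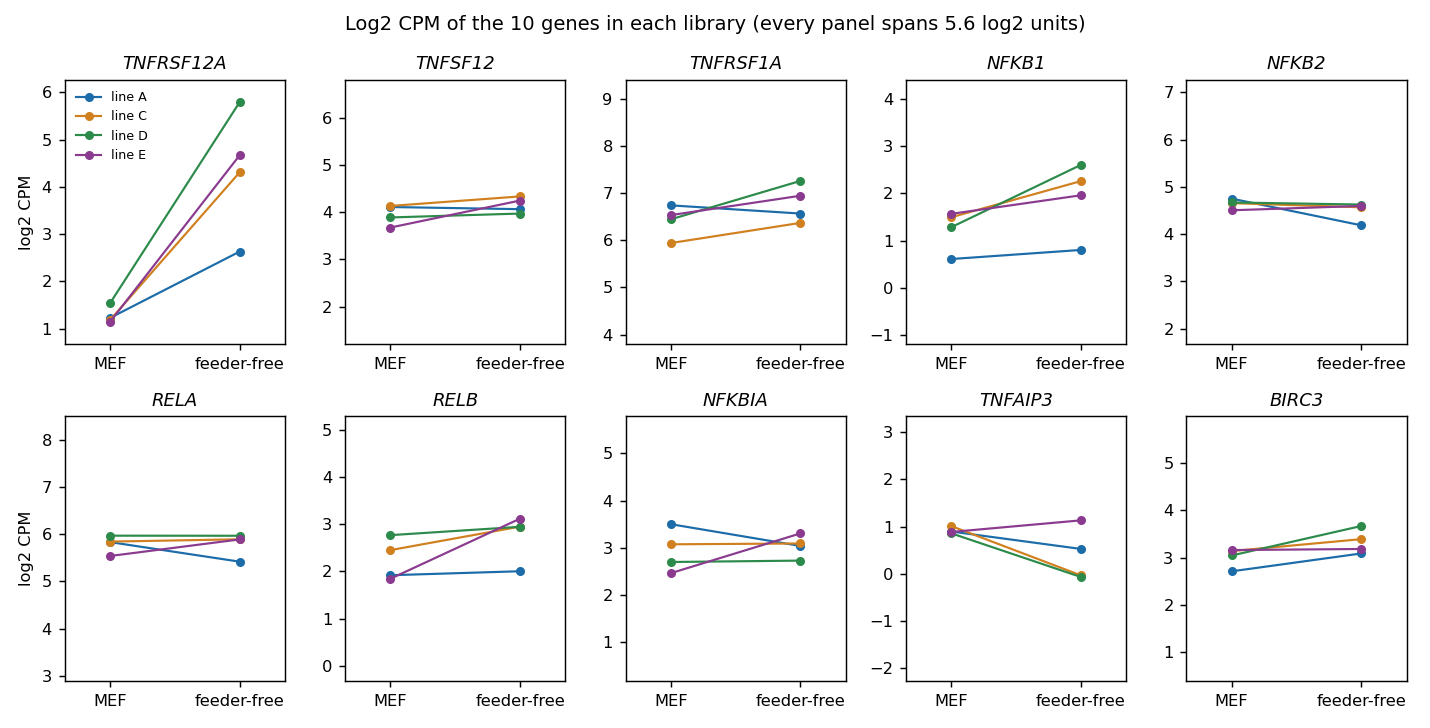
Log2 CPM (prior count of 2) of each of the 10 genes on MEF and in feeder-free conditions, 1 point per library, with a line joining the libraries of a bESC line, on axes that all span the same number of log2 units. TNFRSF12A is higher in feeder-free conditions in all 4 lines, between 2.63 and 5.80 against 1.14 to 1.54 on MEF, while the groups of the other 9 genes overlap.

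The question for the other genes was whether the ligand, the second receptor and the NF-kB machinery changed along with the TWEAK receptor. Among the 9, 0 were called by edgeR's quasi-likelihood test at a Benjamini-Hochberg adjusted p under 0.05 and a change of 1.5-fold or more, where 1.73% of all genes tested were called (272 of 15744). None of the 9 had an unadjusted p under 0.05 (0 of 9, against 21.6% of all genes), and the groups of 0 of 9 were free of overlap in CPM (14.6% of all genes). The fit with line as a term called 0 of 9, against 10% of all genes, with 2 at an unadjusted p under 0.05. DESeq2 called 0 with 1 at an unadjusted p under 0.05, against 5.58% of all genes called, and limma-voom called 0 with 0, against 1.45%. The shares of 10%, 5.58% and 1.45% are of genes called. For these fits no share of all genes at an unadjusted p under 0.05 is given, so the 2 and the 1 have no background. A missed threshold does not show that the levels were the same, so the 95% intervals of the differences are given with each gene.

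The ligand gene TNFSF12 at chr19:27283307-27291150 encodes TWEAK, a cytokine made as a membrane protein and shed. It was measured at 17.2, 17.5, 14.8 and 12.7 CPM on MEF and at 16.7, 20.1, 15.6 and 18.9 CPM in feeder-free conditions in lines A, C, D and E. The groups overlapped, and the widest gap within a line was that of line E. Means were 15.5 ± 2.24 and 17.8 ± 2.05 CPM (SD, n = 4 each), with a log2 fold change of 0.20 (95% interval −0.16 to 0.56, edgeR adjusted p = 0.521). The gene overlaps LOC107131516, whose reads may be counted with it.

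TNFRSF1A at chr5:104024027-104036846 encodes the broadly expressed TNF receptor that carries a death domain. Its levels on MEF were 107, 61.4, 87.0 and 92.5 CPM in lines A, C, D and E, and in feeder-free conditions they were 94.6, 82.5, 153 and 123 CPM. The feeder-free libraries of lines D and E lay above all MEF libraries, whereas line A moved the other way and line C was lowest in both conditions. From 86.9 ± 18.9 to 113 ± 31.4 CPM (SD, n = 4 each), the log2 fold change was 0.38 (95% interval −0.12 to 0.89, edgeR adjusted p = 0.367), and with line as a term the unadjusted p was 0.0346 and the adjusted p 0.123. The span of the gene overlaps that of the non-coding LOC100847453.

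NFKB1 at chr6:22205849-22319260 encodes the precursor of the DNA-binding partner of RELA. Values of 1.49, 2.78, 2.40 and 2.92 CPM on MEF stood against 1.71, 4.75, 6.03 and 3.85 CPM in feeder-free conditions. The gene was higher in 4 of 4 lines, but line A was so low in both conditions that the groups overlapped. Means were 2.40 ± 0.64 and 4.08 ± 1.82 CPM (SD, n = 4 each), and the log2 fold change of 0.77 (95% interval −0.12 to 1.66, edgeR adjusted p = 0.302) had the smallest adjusted p of the 9. With line as a term the unadjusted p was 0.0290 and the adjusted p 0.110. Reads of LOC100335751 and LOC112447046, which overlap the gene, may be counted with it.

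RELA at chr29:43830895-43839537 encodes the activating subunit of the canonical dimer. It was measured at 56.9, 57.4, 62.6 and 46.4 CPM on MEF and at 42.7, 59.3, 62.5 and 59.2 CPM in feeder-free conditions. Line A was lower and line E higher in feeder-free conditions, lines C and D were close to their MEF values, and the groups overlapped. The means, 55.8 ± 6.77 and 55.9 ± 8.95 CPM (SD, n = 4 each), gave a log2 fold change of 0.00 (95% interval −0.33 to 0.34, edgeR adjusted p = 0.994).

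NFKB2 and RELB give the non-canonical dimer. NFKB2 at chr26:23018413-23026096, the precursor gene, had 26.9, 25.2, 25.4 and 22.7 CPM on MEF and 18.2, 23.7, 24.7 and 24.2 CPM in feeder-free conditions, with line A lowest and the others inside or near the MEF range. Its means were 25.1 ± 1.76 and 22.7 ± 3.03 CPM (SD, n = 4 each) and its log2 fold change was −0.14 (95% interval −0.46 to 0.17, edgeR adjusted p = 0.606), with LOC132343951 overlapping it. RELB at chr18:52695674-52724155, the partner gene, had 3.74, 5.43, 6.77 and 3.56 CPM on MEF and 3.97, 7.68, 7.66 and 8.64 CPM in feeder-free conditions. RELB was higher in 4 of 4 lines, most in line E, yet line A in feeder-free conditions lay within the MEF range. The means of 4.88 ± 1.52 and 6.99 ± 2.06 CPM (SD, n = 4 each) gave a log2 fold change of 0.52 (95% interval −0.17 to 1.21, edgeR adjusted p = 0.372). Whether the changes of NFKB2 and RELB differ from each other was not tested.

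NFKBIA at chr21:45639614-45643009 encodes IkB-alpha, which holds canonical dimers in the cytoplasm and is itself a target of NF-kB. Its levels were 11.3, 8.39, 6.46 and 5.48 CPM on MEF and 8.19, 8.49, 6.60 and 9.85 CPM in feeder-free conditions. Line A was lower and line E higher in feeder-free conditions, and the ranges of the groups overlapped. The log2 fold change between 7.90 ± 2.56 and 8.28 ± 1.34 CPM (SD, n = 4 each) was 0.07 (95% interval −0.50 to 0.63, edgeR adjusted p = 0.918).

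TNFAIP3 at chr9:75741101-75756741 encodes a ubiquitin-editing enzyme that damps signalling from TNF receptors. It was measured at 1.82, 1.98, 1.78 and 1.81 CPM on MEF, a narrow range, and at 1.40, 0.942, 0.919 and 2.16 CPM in feeder-free conditions. The gene was lower in feeder-free conditions in 3 of 4 lines and higher in line E. Means were 1.85 ± 0.09 and 1.36 ± 0.58 CPM (SD, n = 4 each), with a log2 fold change of −0.45 (95% interval −1.22 to 0.32, edgeR adjusted p = 0.496).

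BIRC3 at chr15:6392612-6411566 encodes a ubiquitin ligase of the cIAP family that sits in TNF receptor complexes and inhibits cell death. MEF libraries had 6.51, 8.77, 8.22 and 8.90 CPM, and feeder-free libraries had 8.47, 10.5, 12.7 and 9.04 CPM. All 4 lines were higher in feeder-free conditions, line E by very little, and line A in feeder-free conditions fell inside the MEF range. Means of 8.10 ± 1.10 and 10.2 ± 1.88 CPM (SD, n = 4 each) gave a log2 fold change of 0.33 (95% interval −0.10 to 0.76, edgeR adjusted p = 0.367).

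Across the 9 genes the fitted log2 fold change ran from −0.45 for TNFAIP3 to 0.77 for NFKB1, with a median of 0.20 beside 0.01 over all genes tested. Above 0 were 7 of 9, beside 7959 of 15743 over all genes without TNFRSF12A. Line A in feeder-free conditions was the lowest of its condition for 6 of the 10 genes (TNFRSF12A, NFKB1, NFKB2, RELA, RELB and BIRC3) and the highest for 0. Line D, the deepest library of feeder-free conditions, was the highest for 6 of 10 (TNFRSF12A, TNFRSF1A, NFKB1, NFKB2, RELA and BIRC3). On MEF, line E was lowest for 6 of 10. These counts include TNFRSF12A, which was chosen by its rise, and how often each library is lowest or highest over all genes is not given. In feeder-free conditions the fibroblast marker sum was also lowest in line A, at 280.1 CPM, and highest in line D, at 1315 CPM, mostly from COL1A1 at 115 and 1033 CPM, and the part of fibroblast RNA in the order of the lines was not tested.

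**Figure D2:**
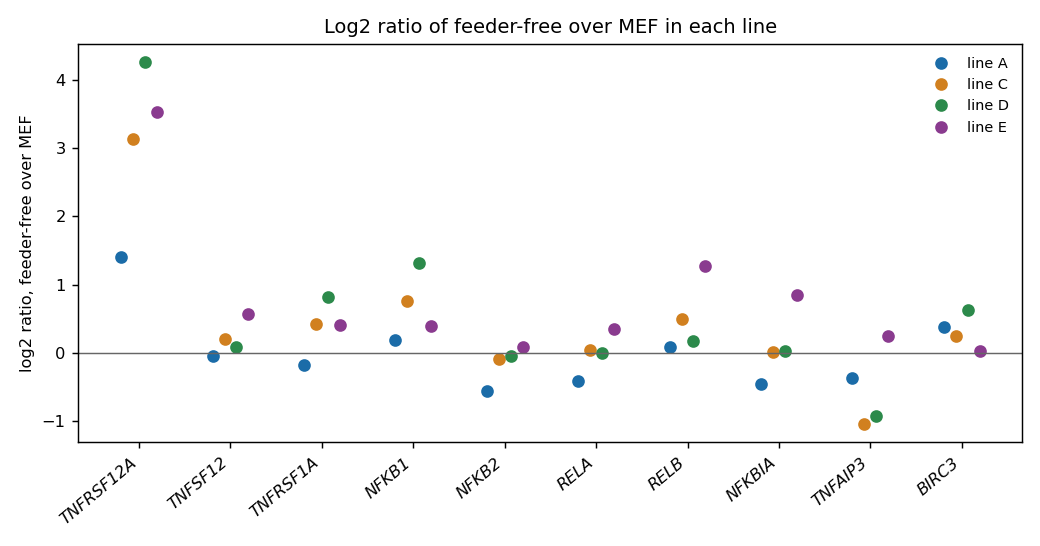
Log2 ratio of feeder-free over MEF (difference in log2 CPM) for each of the 10 genes, 1 point per bESC line, with a horizontal line at no difference. TNFRSF12A lies between 1.40 and 4.26, and the points of NFKB1, RELB and BIRC3 are all above 0 but the groups of those genes overlap in level.

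The wider pathway was read from 5 lists of genes by role, without TNFRSF12A: TNF superfamily ligands, TNF receptor superfamily, adaptors with kinases and ubiquitin enzymes, NF-kB subunits with IkB proteins, and known NF-kB target genes. Together they hold 130 genes, of which 128 were found by name and 93 passed the filter on low counts. The 9 genes described above are among the 93, and a gene on more than 1 list is counted once here and in each of its lists below. The unpaired test called 1 of 93, PTGS2, beside 1.73% of all genes, and 25 of 93 had an unadjusted p under 0.05 (18 higher and 7 lower in feeder-free conditions) beside 21.6% of all genes. The groups did not overlap for 13 of 93 genes, 7 higher and 6 lower, beside 14.6% of all genes. With line as a term, 13 of 93 were called, 12 of them higher, beside 10% of all genes in either direction and 5.52% higher in feeder-free conditions. The median log2 fold change of the 93 was 0.29 beside 0.01 over all genes, and 64 of 93 were above 0, beside 7959 of 15743 over all genes.

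The 35 genes that did not pass the filter had at most 34 counts in any library. Of these, 12 had 0 counts in all 8 libraries: the ligands TNFSF8, TNFSF15 and CD40LG, the receptor TNFRSF13B, the survival gene BCL2A1, and the cytokine or acute phase genes CXCL8, GRO1 (CXCL1 in the list), CXCL10, CCL20, IL6, CSF2 and SAA3. A count of 0 allows up to 3 counts, which is 0.0293 to 0.0720 CPM depending on the library, for counting error only. TNF itself, the founding cytokine of the family, was at 0, 0, 0 and 10 counts on MEF and at 3, 0, 0 and 6 counts in feeder-free conditions.

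**Figure D3:**
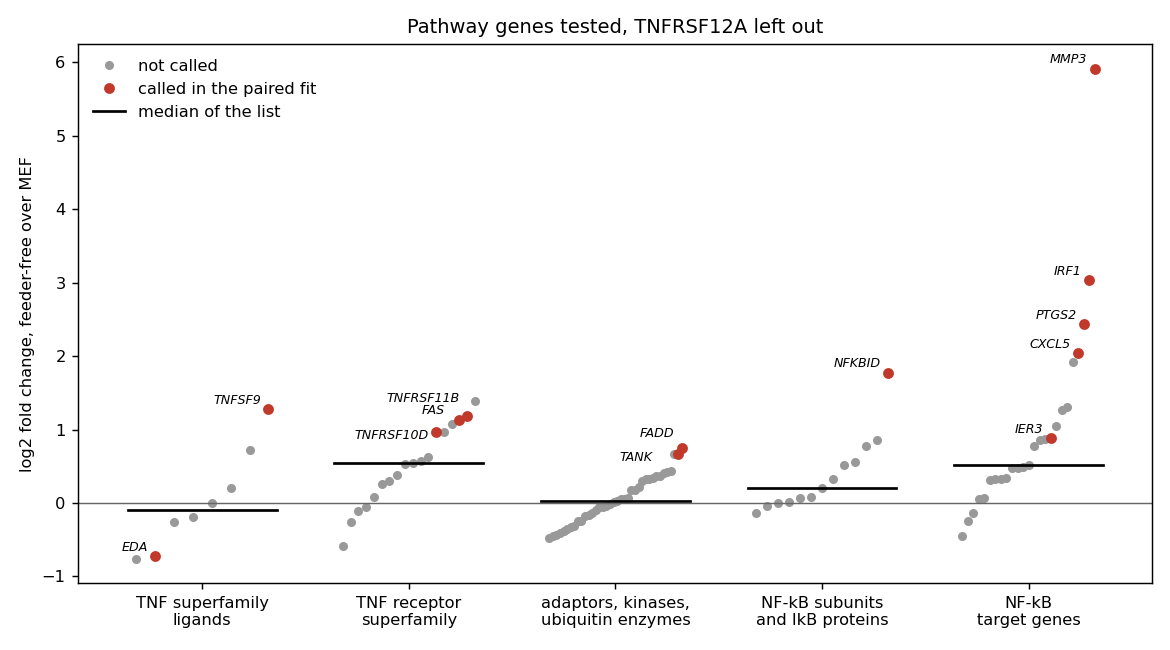
Fitted log2 fold change of feeder-free over MEF for every tested gene of the 5 pathway lists, 1 point per gene in order of its value, with the list's median as a bar and the genes called with line as a term in red. The receptors and the target genes have medians of 0.54 and 0.52, the other lists lie between −0.10 and 0.21, and MMP3 and IRF1 are the highest points.

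Among the ligands, 8 of 18 were tested, with a median log2 fold change of −0.10. The unpaired test called 0 of 8, beside 1.73% of all genes, and the fit with line as a term 2 of 8, beside 10%. TNFSF9, the ligand of a costimulatory receptor of T cells, was measured at 6.91, 3.45, 3.22 and 4.12 CPM on MEF and at 8.57, 10.9, 14.2 and 9.31 CPM in feeder-free conditions. All feeder-free libraries were above all MEF libraries, and the log2 fold change was 1.28 ± 0.29 (SE, edgeR adjusted p = 0.0535, and 0.0146 with line as a term). EDA, the ligand ectodysplasin of skin and tooth development, went the other way, from 187, 130, 156 and 121 CPM to 114, 83.1, 88.7 and 72.4 CPM. It fell in every line without overlap of the groups, by a log2 fold change of −0.73 ± 0.18 (SE, edgeR adjusted p = 0.0653, and 0.00268 with line as a term). TNFSF11, the RANK ligand of bone, had a log2 fold change of 0.72 that passed neither fit (edgeR adjusted p = 0.393, and 0.0790 with line as a term).

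Of the receptors, 18 of 26 were tested, 14 with a log2 fold change above 0 (7959 of 15743 over all genes) and a median of 0.54. The unpaired test called 0 of 18, beside 1.73% of all genes, and the fit with line as a term 3 of 18, beside 10%. TNFRSF11B, the secreted decoy receptor osteoprotegerin, was measured at 1.34, 1.89, 1.82 and 1.54 CPM on MEF and at 2.91, 3.16, 5.22 and 3.64 CPM in feeder-free conditions. FAS, a death receptor, had 1.03, 2.00, 2.73 and 1.77 CPM on MEF and 3.01, 3.39, 5.09 and 5.04 CPM in feeder-free conditions. Both had groups that did not overlap, with log2 fold changes of 1.18 ± 0.28 and 1.13 ± 0.35 (SE, edgeR adjusted p = 0.0594 and 0.103, and 0.0186 and 0.0179 with line as a term). CD40, a receptor of antigen-presenting cells, was higher in 4 of 4 lines by a log2 fold change of 0.97, which passed neither fit (edgeR adjusted p = 0.156, and 0.0612 with line as a term). TNFRSF10D, a TRAIL receptor on an unplaced sequence that was named after its values were seen, had 20.4, 46.9, 45.4 and 46.9 CPM on MEF and 37.5, 101, 108 and 65.9 CPM in feeder-free conditions. Each line rose, though line A in feeder-free conditions stayed below lines C, D and E on MEF, and the log2 fold change was 0.97 ± 0.36 (SE, edgeR adjusted p = 0.158, and 0.00396 with line as a term).

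Of the adaptors, kinases and ubiquitin enzymes, 38 of 38 were tested, with a median log2 fold change of 0.02, 20 above 0 and 18 below. The unpaired test called 0 of 38, beside 1.73% of all genes, and the fit with line as a term 2 of 38, beside 10%. TANK, a TRAF-binding scaffold, was measured at 8.74, 8.73, 9.04 and 8.88 CPM on MEF and at 17.0, 12.5, 13.3 and 13.5 CPM in feeder-free conditions. The MEF values were nearly equal and all feeder-free values higher, with a log2 fold change of 0.67 ± 0.15 (SE, edgeR adjusted p = 0.0538, and 0.0203 with line as a term). FADD, the adaptor of death receptors and named after its values were seen, had 7.80, 10.5, 10.7 and 6.61 CPM on MEF and 9.47, 12.4, 22.1 and 15.6 CPM in feeder-free conditions, higher in each line but with line A inside the MEF range (log2 fold change 0.75 ± 0.28 SE, edgeR adjusted p = 0.161, and 0.0428 with line as a term). TAB1 and TAB2, the partners of the kinase TAK1, were lower in each of the 4 lines without overlap, with log2 fold changes of −0.39 and −0.33 that stayed under the 1.5-fold threshold (edgeR adjusted p = 0.0812 and 0.0994, and 0.0404 and 0.0611 with line as a term).

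NF-kB subunits and IkB proteins had 13 of 14 tested and a median log2 fold change of 0.21. The unpaired test called 0 of 13, beside 1.73% of all genes, and the fit with line as a term 1 of 13, beside 10%. That gene, NFKBID, encodes a nuclear IkB protein, and was measured at 1.34, 3.63, 3.55 and 1.38 CPM on MEF and at 4.63, 7.29, 12.9 and 9.06 CPM in feeder-free conditions. All 4 lines were higher and the groups did not overlap (log2 fold change 1.77 ± 0.44 SE, edgeR adjusted p = 0.0644, and 0.00409 with line as a term). NFKBIB, another cytoplasmic IkB gene, and NFKBIZ, another nuclear one, had log2 fold changes of 0.56 and 0.86 with overlapping groups (edgeR adjusted p = 0.203 and 0.245, and 0.0726 and 0.185 with line as a term). NFKBIA, the IkB gene among the 10, differed by 0.07, and REL, the remaining subunit, by 0.02 (edgeR adjusted p = 0.985).

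The NF-kB target genes had 25 of 43 tested, 22 with a log2 fold change above 0 (7959 of 15743 over all genes) and a median of 0.52. The unpaired test called 1 of 25, beside 1.73% of all genes, and the fit with line as a term 5 of 25, beside 10%. PTGS2 at chr16:67728006-67735629, the inducible cyclooxygenase, had 0.192, 0.182, 0.330 and 0.408 CPM on MEF, from 8, 10, 16 and 18 counts, and had 1.18, 2.35, 1.27 and 1.23 CPM in feeder-free conditions, from 59, 125, 130 and 64 counts. All feeder-free libraries were above all MEF libraries and line C was the highest. Its log2 fold change of 2.43 ± 0.43 (SE, edgeR adjusted p = 0.0373, and 0.0107 with line as a term) kept its call when line A in feeder-free conditions was left out, and lost it without any of the other 7 libraries (adjusted p = 0.0731 to 0.116). Those 7 fits called only 0 to 6 of all genes tested, against 490 without line A in feeder-free conditions. In them the log2 fold change of PTGS2 lay between 2.14 and 2.67. PTGS2 is also on the trophoblast list, where KRT7 was higher and GATA2 and TFAP2A lower in 4 of 4 lines. On the same list GATA3 was higher in 3 of 4 lines and TFAP2C in 2 of 4, and the part of such cells was not tested.

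MMP3 at chr15:5779177-5785763, which encodes the matrix protease stromelysin, was measured at 0, 0.145, 0.826 and 0.0453 CPM on MEF and at 0.642, 12.1, 47.0 and 3.00 CPM in feeder-free conditions in lines A, C, D and E. IRF1 at chr7:21938660-21946679, an interferon-responsive transcription factor whose span overlaps RAD50, had 0.840, 2.03, 6.36 and 0.612 CPM on MEF and 4.53, 17.5, 42.9 and 16.0 CPM in feeder-free conditions. In both genes line D was the highest library of each condition, every line rose, and line A in feeder-free conditions lay within the MEF range. Their log2 fold changes were 5.92 ± 1.51 and 3.04 ± 0.85 (SE, edgeR adjusted p = 0.0671 and 0.0838). With line as a term both were called, at 6.04 (adjusted p = 2.04e-05) and 3.20 (adjusted p = 0.000763). The fitted change of MMP3 depends on few MEF counts (0, 8, 40 and 2).

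CXCL5, a neutrophil chemokine, and IER3, an immediate early gene, were the other targets called with line as a term, and both were named after their values were seen. CXCL5 had 0, 7.92, 3.90 and 1.77 CPM on MEF and 0.562, 28.3, 18.9 and 8.29 CPM in feeder-free conditions, so the groups overlapped although each line rose (log2 fold change 2.04 ± 1.24 SE, edgeR adjusted p = 0.387, and 0.00226 with line as a term). IER3 had 9.22, 9.32, 8.20 and 6.52 CPM on MEF and 8.27, 17.2, 21.5 and 14.3 CPM in feeder-free conditions, higher in lines C, D and E and slightly lower in line A (log2 fold change 0.88 ± 0.28 SE, edgeR adjusted p = 0.111, and 0.0442 with line as a term). The members of the target list among the 10 genes, NFKBIA, TNFAIP3, BIRC3, NFKB1, NFKB2 and RELB, were not called in either fit.

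Of the 13 genes called with line as a term, fits with both libraries of one line left out called 12 without line A, 8 without line C, 7 without line D and 10 without line E, where 10.5%, 6.67%, 4.68% and 7.37% of all genes were called. The fibroblast marker sum was highest in the feeder-free libraries of lines C and D, at 925 and 1315 CPM, where MMP3, IRF1 and CXCL5 were highest too, and its part in these genes was not tested. Among the pathway genes named, IRF1, TNFRSF11B (with COLEC10), EDA, FAS, TANK, TAB2 and NFKBIB overlap other annotated genes, whose reads may be counted with them.

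**Figure D4:**
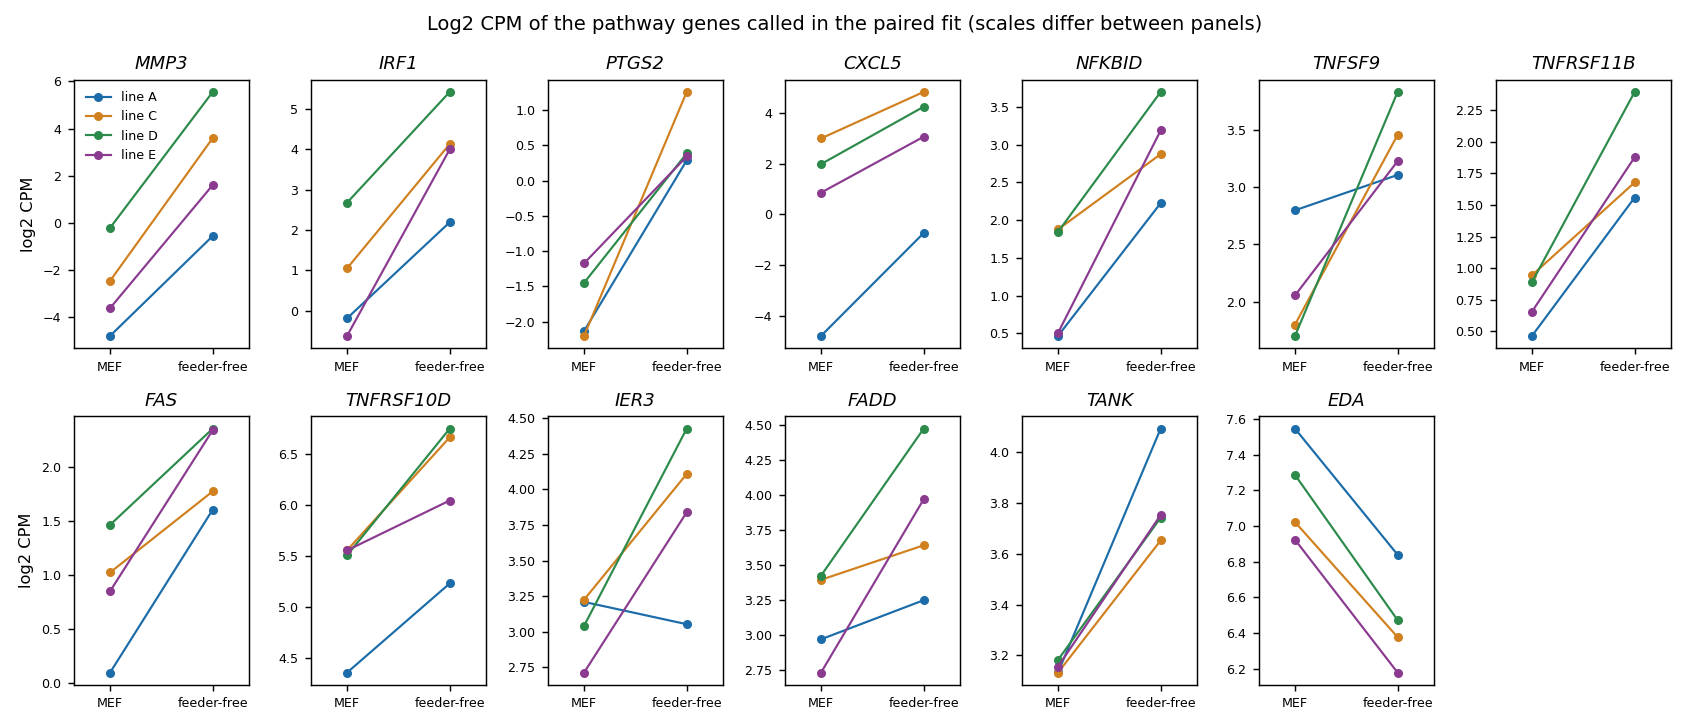
Log2 CPM (prior count of 2) of the 13 pathway genes called with line as a term, on MEF and in feeder-free conditions, with a line joining the libraries of a bESC line and a scale of its own in each panel. EDA falls in all 4 lines, IER3 is lower in line A and higher in the others, and the remaining 11 genes rise in all 4 lines.

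Genes whose log2 CPM followed that of TNFRSF12A most closely over the 8 libraries were sought among 13254 genes with a mean of at least 1 CPM. The 5 closest were ZFP36, which encodes an RNA-binding protein that destabilises cytokine transcripts (Pearson r = 0.993), the myosin light chain gene MYL12A (0.992), the LIM domain gene FHL2 (0.989), the interferon-induced gene IFI35 (0.987) and TGFB1I1, a focal adhesion gene (0.985). These r describe 8 libraries that share the same condition step and lines, and carry no test. ZFP36 had 11.4, 12.7, 15.4 and 11.4 CPM on MEF and 20.8, 38.4, 61.9 and 50.7 CPM in feeder-free conditions. FHL2 had 4.01, 5.83, 8.14 and 5.16 CPM on MEF and 11.2, 28.0, 68.9 and 32.9 CPM in feeder-free conditions. In both, as in TNFRSF12A, line A was the lowest and line D the highest feeder-free library. The 5 were picked by their likeness to TNFRSF12A in these libraries, so a shared direction and order of lines came with the choice. The fitted log2 fold changes were 1.76 for ZFP36, 0.83 for MYL12A, 2.61 for FHL2, 3.59 for IFI35 and 2.16 for TGFB1I1, each higher in 4 of 4 lines, and none of the 5 is on a pathway list.

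**Figure D5:**
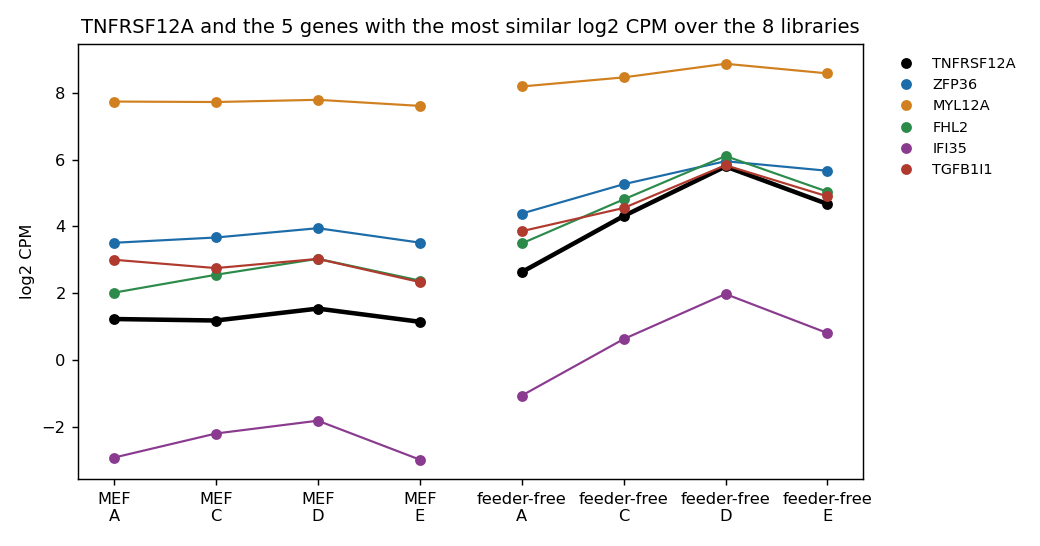
Log2 CPM (prior count of 2) of TNFRSF12A in black and of the 5 genes most similar to it in the 8 libraries, ordered by condition and line. All 6 are lowest on MEF and peak in the feeder-free library of line D, and heights are not comparable between genes because CPM takes no account of gene length.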

How the data were processed

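Counts were used as deposited: the authors trimmed reads with Trimmomatic, aligned them to ARS-UCD2.0 with STAR, removed optical duplicates (Picard) and alignments of low mapping quality (samtools), and made raw counts per gene with featureCounts (Subread 1.6.2 per the submitters' processing notes). They describe removing the bovine-aligned reads of a pure MEF sample from MEF counts. Whether strand was used and whether reads or pairs were counted is not given in the sources used here, and the labels name Trizol where the methods name RNeasy. A single sequencing batch is recorded for the 8 libraries.

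The table lists 32640 genes, 3 of them without values and not used, and has 0 unused columns. Counts of the 12 library pairs within conditions differed by at least 40.8 in chi-square per degree of freedom, so the libraries were treated as separate. edgeR 4.0.16 in R 4.3.3 (filterByExpr, TMM, glmQLFit, glmQLFTest, condition only) tested 15744 genes, called at a Benjamini-Hochberg adjusted p under 0.05 and a change of 1.5-fold or more. Log2 CPM used a prior count of 2, and standard errors and 95% intervals come from the fit. P-values of the unpaired fit measure the spread between 4 lines with 1 library each per condition. Those of the fit with line as a term measure how the difference between conditions varies among the 4 lines. The labels use the same line letters in both conditions, and their libraries deviated together from the means of their conditions (r over tested genes 0.582 in line A, 0.557 in line C, 0.664 in line D and 0.421 in line E, other pairs −0.523 to 0.249), so a fit with line as a term stands beside the unpaired one. The results were recomputed with RLE size factors, without scaling, with other filters on low counts, DESeq2 1.42.0, limma-voom (limma 3.58.1), without a fold threshold and without each library in turn.

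The 10 genes and the pathway and marker lists were chosen with earlier results of these data known. Named genes were the 10, every pathway gene called by the unpaired test, the 3 of each list with the smallest p, and the 5 most similar to TNFRSF12A. The rule also asked for the 3 genes of each list with the highest level per exon length, which was not computed because exon lengths were not used here. Coordinates are those of RefSeq genes on ARS-UCD2.0, matched by symbol for 30268 genes. No sequences are shown.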

Additional observations from a re-analysis of the deposited data

Results flagged for a closer look

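Among 50 groups of 4 libraries (25 named genes in each condition), 4 held a library far from the other 3 by Dixon's criterion on log2 CPM. Chance would give about 2.5 if the groups were independent and the genes unselected. Some of the genes were named for a small p in this contrast, and 3 of the 4 fell in the same library, so that figure is only a rough guide. In the feeder-free library of line A, NFKB2 was at 4.19 where its 3 neighbours lay at 4.57 to 4.63. RELA in the same library was at 5.42 against 5.89 to 5.97. RELB was at 2.00 there against 2.94 to 3.12. PTGS2 stood apart in the feeder-free library of line C, at 1.26 against 0.29 to 0.39.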

How the results depend on the processing

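Of the 9 genes, 0 were called under every alternative run, including each library left out and both libraries of each line left out. Except without line A in feeder-free conditions, the fits without 1 library called only 0 to 6 of all genes tested. Their 0 of 9 therefore cannot tell whether the 9 genes changed. The number of pathway genes called, 1 of 93 in the unpaired test (1 higher, 0 lower, and 1.73% of all genes called), was 3 of 79 with at least 10 counts in every library (3 higher, with PTGS2 not tested, and 2.97% of all genes), 2 of 93 with limma-voom (2 higher, and 1.45%), 11 of 116 with DESeq2 (10 higher, 1 lower, and 5.58%) and 13 of 93 with line as replicate block (12 higher, 1 lower, and 10%), where the pairing of lines removes differences between lines. With each library left out in turn it ranged from 0 to 6 (0 to 5 higher, 0 to 1 lower), the 6 arising without line A in feeder-free conditions. Over all genes the same fits called 490 without line A in feeder-free conditions but only 0 to 6 without any other library, against 272 with all libraries. The paired count of 13 ranged from 7, without line D (4.68% of all genes called), to 13, without line A (10.5%), an alternative chosen after seeing the data. The log2 fold change of RELA, 0.00, was −0.0015 with limma-voom, −0.0036 with the replicate block and −0.078 to 0.11 with each library left out, and that of NFKBIA, 0.07, was −0.075 to 0.29. The block changed no call among the 9. Limits are 4 lines, conditions that change together, MEF libraries with under 20 counts of PTGS2, and the step that removed MEF reads.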

Other observations

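LTBR, the lymphotoxin beta receptor that also feeds the non-canonical NF-kB route, was chosen from the receptor list after its values were seen. It was measured at 10.2, 1.56, 9.89 and 9.88 CPM on MEF in lines A, C, D and E and at 15.0, 2.83, 9.07 and 11.9 CPM in feeder-free conditions. Line C was the lowest library in both conditions, and the change between conditions was small beside this gap between lines (log2 fold change 0.30 ± 0.60 SE, edgeR adjusted p = 0.831). With line as a term it was 0.37 ± 0.19 SE, with an edgeR adjusted p of 0.217.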
